A study of Homo sapiens with 6 samples.

Results

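The receptors described here are the kinases ALK, NTRK2, NTRK3, RET, ERBB3 and KIT and the co-receptors GFRA1, GFRA2 and GFRA3, whose RNA was measured in 6 human neuroblastoma cell lines. The 9 genes were chosen by name, and each was found in 1 locus, so that they make up 9 of the 16223 loci with a gene name and of 19170 loci in all. The MYCN oncogene is amplified in CHP134, Kelly, SK-N-DZ and BE(2)-C and is not amplified in SY5Y and SK-N-AS. Each line was an untreated culture with 1 library of ribosome-depleted RNA, sequenced without poly-A selection, and the labels name no allele, age or agent beyond the line itself. The culture medium was RPMI for CHP134 and Kelly and DMEM for the rest. Every line is a long-cultured derivative of a single tumour, BE(2)-C and SY5Y are subclones, and the 4 MYCN-amplified lines and 2 MYCN-non-amplified lines stand in for their groups, so that each test measured the spread between lines. The table does not name its unit, and its values were read as FPKM, fragment counts divided by transcript length and library size, in which levels of different genes can be set side by side.

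Receptors of this set carry survival and differentiation signals in the sympathetic lineage from which neuroblastoma arises. ALK, the TRK receptors, RET, ERBB3 and KIT span the membrane, and binding of a ligand brings them together and starts phosphorylation inside the cell, although ERBB3 has little kinase activity and acts through a partner of its family. RET does not bind its ligands alone: a GFRA protein, anchored to the outer face of the membrane, binds GDNF (GFRA1), neurturin (GFRA2) or artemin (GFRA3) and presents it to RET. ALK is the kinase most often altered by mutation in neuroblastoma, and NTRK2 and NTRK3 encode TrkB and TrkC, the receptors of BDNF and neurotrophin-3.

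MYCN RNA, read as a check of the labels, was at 184 to 774 FPKM in the MYCN-amplified lines and at 0.921 and 0.208 FPKM in SY5Y and SK-N-AS. Library sums went from 777111 in CHP134 to 1305116 FPKM in SK-N-AS, and the small nuclear RNAs RNU4-1 and RNU4-2 took 22.6% to 41.0% of the sum in the MYCN-amplified lines, against 46.8% in SY5Y and 54.6% in SK-N-AS. Levels carry no counting error here, because the files do not give the number of reads. Of 10 markers of the adrenergic neuroblast, 8 to 10 reached 1 FPKM in the MYCN-amplified lines, 9 in SY5Y and 8 in SK-N-AS. The transcription factors were present in every line, for example HAND2, a regulator of the sympathetic lineage, at 65.8 to 145 FPKM in the MYCN-amplified lines and at 183 and 121 FPKM in SY5Y and SK-N-AS. The enzymes of catecholamine synthesis were not: TH was at 72.5 FPKM in Kelly and below 1 FPKM in the 5 other lines, and DBH was below 1 FPKM in CHP134 (0.0960 FPKM) and SK-N-AS (0.347 FPKM). Summed over 10 loci, mesenchymal markers were at 54.1 to 220.2 FPKM in the MYCN-amplified lines, and at 545 FPKM in SY5Y and 1037 FPKM in SK-N-AS. Of these loci, 9 were tested, and 1 was called lower in the MYCN-amplified lines (smallest adjusted p = 0.0317 from limma). The share called lower over all tested loci was 0.365%. All 9 log2 fold changes, MYCN-amplified minus MYCN-non-amplified, were negative, with a median of -2.67. SK-N-AS also stood apart by PTPRC, the leukocyte antigen CD45, at 108 FPKM against at most 0.0658 FPKM in any other line. Of 7 immune markers, the only other one with a locus was CD68, in a locus merged with EIF4A1. None of 5 endothelial markers had a locus that was analysed here, and of 9 Schwann cell precursor markers, SOX10, FOXD3 and CDH19 likewise had none. The part of these markers in the receptor levels was not tested.

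The stretches that lie before ALK, RET and GFRA1 are shown because the results below turn on these receptors and their sequence makeup differs. They come from RefSeq (GRCh38.p14), were placed on hg19 by exact match, and stop where the listed locus begins. The capitals mark GGGCGG or its reverse complement, the GC box bound by SP1. The ALK stretch (hg19 chr2:30144464-30144702, minus strand), the RET stretch (chr10:43572267-43572474, plus strand) and the GFRA1 stretch (chr10:118034218-118034467, minus strand, 633 bases from the listed locus) read, 5′ to 3′:
ALK: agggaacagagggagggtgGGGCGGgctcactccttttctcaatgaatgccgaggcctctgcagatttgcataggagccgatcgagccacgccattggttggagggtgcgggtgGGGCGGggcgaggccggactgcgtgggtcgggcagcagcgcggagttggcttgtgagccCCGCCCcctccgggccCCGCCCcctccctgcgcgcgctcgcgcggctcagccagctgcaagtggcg
RET: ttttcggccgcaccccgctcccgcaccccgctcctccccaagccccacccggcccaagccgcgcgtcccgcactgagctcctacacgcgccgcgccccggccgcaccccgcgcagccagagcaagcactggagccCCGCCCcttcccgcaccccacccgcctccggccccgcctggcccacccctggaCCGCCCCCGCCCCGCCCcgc
GFRA1: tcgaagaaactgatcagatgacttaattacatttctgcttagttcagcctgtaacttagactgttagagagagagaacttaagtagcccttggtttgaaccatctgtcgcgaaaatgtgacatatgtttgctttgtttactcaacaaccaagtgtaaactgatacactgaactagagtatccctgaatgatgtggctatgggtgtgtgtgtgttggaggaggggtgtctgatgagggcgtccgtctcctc
In GENCODE 44 the GFRA1 stretch lies in an intron of a longer GFRA1 transcript and in an exon of a long noncoding RNA on the other strand. Within these stretches there were 4 GC boxes before ALK and 4 before RET, of which the last overlap, and none before GFRA1. Over the full 250 bases before the RefSeq start, which 7 of the 9 genes had, G and C made up 71.6% for ALK, 79.6% for RET and 43.2% for GFRA1, against a median of 58.0% over all promoters. Of 35114 promoters of that length, 42.6% held the GC box on either strand. Besides ALK and RET, the windows of NTRK2, GFRA3 and KIT held 1 GC box each and that of NTRK3 held 2. The palindromic E-box CACGTG, the letters that MYC and MYCN dimers with MAX bind best, was in 6.35% of the promoters and in none of the 7 windows of the receptors.

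**Figure D1:**
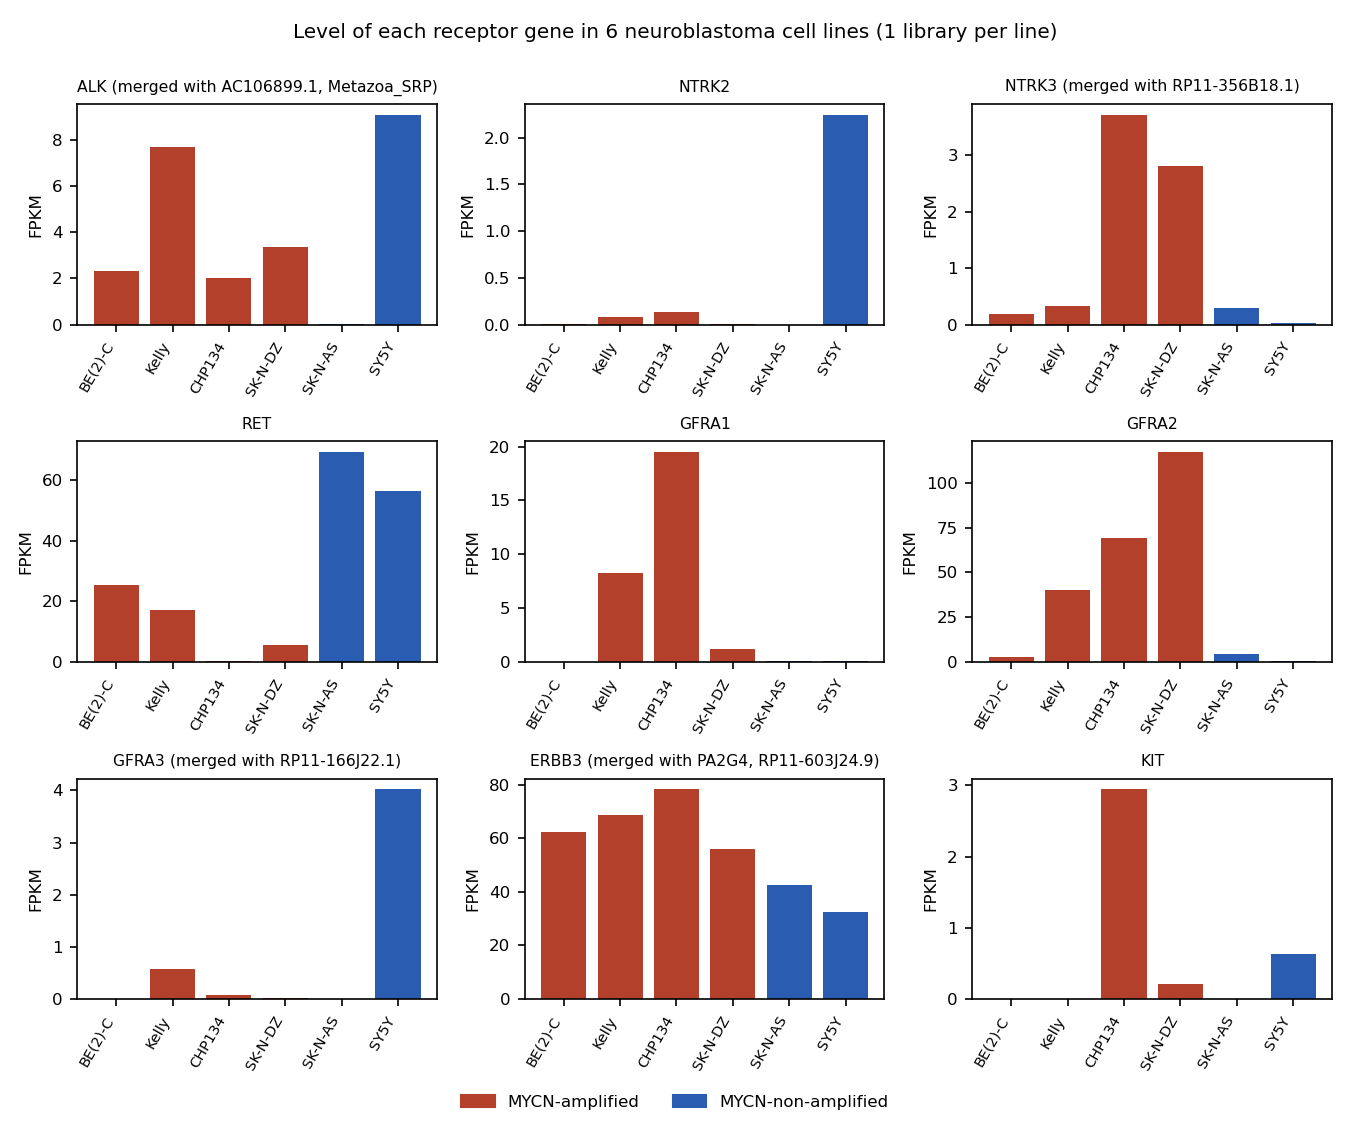
Level of each receptor gene (FPKM, linear axis from 0) in the 6 cell lines, 1 library and 1 bar per line, with the MYCN-amplified lines in red and the MYCN-non-amplified lines in blue. RET bars are tallest in SK-N-AS and SY5Y (69.3 and 56.4 FPKM), GFRA2 bars in SK-N-DZ, CHP134 and Kelly (40.2 to 117 FPKM), and the ERBB3 bars also hold PA2G4.

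ALK RNA was present in 5 of the 6 lines and close to 0 in SK-N-AS. The locus had 2.03 FPKM in CHP134, 7.69 in Kelly, 3.38 in SK-N-DZ and 2.31 in BE(2)-C, against 9.11 FPKM in SY5Y and 0.0171 FPKM in SK-N-AS. The levels of the MYCN-amplified lines thus lay between those of the MYCN-non-amplified lines, and the groups overlapped. The highest levels were those of SY5Y and Kelly, both known to carry an activating ALK mutation, which the labels do not name. In the other 4 lines ALK was at 0.0171 to 3.38 FPKM. Whether the mutation goes with the level was not tested. Every fold change here is a log2 fold change on the log2(FPKM + 0.5) scale, which understates the change of low genes. ALK differed by 0.80 between MYCN-amplified and MYCN-non-amplified lines (standard error 1.09, 95% interval -1.74 to 3.33, adjusted p = 0.757 from limma). The direction rested on SK-N-AS: the fold change was -1.31 without it and 2.91 without SY5Y. The listed locus, 29413270 to 30144463 of chromosome 2 in hg19, spans the whole ALK gene on the minus strand and is merged with AC106899.1 and a signal recognition particle RNA of the Metazoa_SRP family. GENCODE 44 also places part of CLIP4 there, which is listed as a locus of its own. Reads from the merged AC106899.1 and signal recognition particle RNA cannot be told apart from those of ALK, and the value of 0.0171 in SK-N-AS includes them. The libraries are bulk RNA, in which fewer expressing cells and less RNA per cell cannot be told apart.

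RNA of candidate ALK ligands was unevenly spread. Among the tested ligand genes were the heparin-binding growth factors MDK and PTN, which have been proposed as ALK ligands. MDK, midkine, was at 233 FPKM in CHP134, 238 in Kelly, 542 in SK-N-DZ and 21.9 in BE(2)-C, and at 329 and 210.2 FPKM in SY5Y and SK-N-AS. BE(2)-C was the low line, and without it the fold change of -0.71 became 0.24. PTN, pleiotrophin, was at 0.0632 FPKM in CHP134, 3.97 in Kelly, 3.95 in SK-N-DZ and 24.6 in BE(2)-C, against 47.3 FPKM in SY5Y and 160 FPKM in SK-N-AS. All MYCN-amplified lines were below both other lines, with a fold change of -4.42 (standard error 1.32, adjusted p = 0.210), which did not pass the test. ALKAL2, an ALK ligand listed under its older symbol FAM150B, stayed below 1 FPKM in every line (0.0969 to 0.747 FPKM in the MYCN-amplified lines, 0.364 and 0.193 FPKM in SY5Y and SK-N-AS). LTK, the nearest relative of ALK, was also below 1 FPKM throughout, at most 0.827 FPKM in CHP134.

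Among the 42 receptor kinase loci that could be ranked, RET had the most RNA in both MYCN-non-amplified lines. It was at 0.181 FPKM in CHP134, 17.0 in Kelly, 5.69 in SK-N-DZ and 25.3 in BE(2)-C, against 56.4 FPKM in SY5Y and 69.3 FPKM in SK-N-AS. Every MYCN-amplified line lay below both MYCN-non-amplified lines, and CHP134 stood apart with almost no RET RNA. Of 58 receptor tyrosine kinase genes, 42 had a locus that holds no other gene or only clone-named or small RNA genes. Among those, RET ranked 2 in BE(2)-C after DDR2, 3 in Kelly, 7 in SK-N-DZ and 35 in CHP134, and it ranked 1 in both SY5Y and SK-N-AS. Loci merged with further genes were not ranked, and some were higher than RET. For example, the locus of PDGFRA with FIP1L1 was at 66.8 FPKM in SY5Y and 70.7 FPKM in SK-N-AS. Relative to all named loci of a line, the RET level was at percentile 84.1 in BE(2)-C and 12.5 in CHP134, and at percentile 92.9 in SY5Y and 93.6 in SK-N-AS. The MYCN-amplified lines averaged 12.1 ± 11.3 FPKM (SD, n = 4 lines), and the fold change was -3.25 (standard error 1.32, 95% interval -6.33 to -0.17). It did not pass the test over all loci (adjusted p = 0.314 from limma, unadjusted p = 0.0410), and it was -2.16 without CHP134 and -2.32 among the lines grown in DMEM. RET is listed alone, at 43572475 to 43625800 of chromosome 10, and no other annotated gene overlaps it.

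GFRA2 and GFRA1 were highest in lines other than those with the most RET. GFRA2, the neurturin co-receptor, was at 69.2 FPKM in CHP134, 40.2 in Kelly, 117 in SK-N-DZ and 2.43 in BE(2)-C, against 0.239 FPKM in SY5Y and 4.43 FPKM in SK-N-AS. Kelly, CHP134 and SK-N-DZ were far above the other lines, whereas BE(2)-C was below SK-N-AS, so that the groups overlapped. In SK-N-DZ the level was at percentile 97.0 of the named loci, the highest percentile of any of the 9 receptors in any line. GFRA2 had the largest fold change of the tested receptors, 4.04 (standard error 1.46, 95% interval 0.63 to 7.45), which did not pass the test (adjusted p = 0.266 from limma, unadjusted p = 0.0261). The fold change was 5.18 (adjusted p = 0.0693) without BE(2)-C and 2.67 without SY5Y. The locus lies at 21547915 to 21669875 of chromosome 8, on the minus strand.

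RNA of GFRA1, the GDNF co-receptor, reached 1 FPKM in 3 MYCN-amplified lines and was near 0 elsewhere. It was at 19.5 FPKM in CHP134, 8.27 in Kelly, 1.20 in SK-N-DZ and 0.000176 in BE(2)-C, and at 0.0629 and 0.0319 FPKM in SY5Y and SK-N-AS. BE(2)-C had the lowest value of all, which made the groups overlap. The fold change was 2.67 (standard error 1.36, adjusted p = 0.399), or 3.61 without BE(2)-C. Kelly and CHP134, with the highest levels, are also the only lines grown in RPMI, so that medium and line cannot be told apart here. With the DMEM lines alone, GFRA1 fell below the minimum level and could not be fitted. GFRA3, the artemin co-receptor, is listed in a locus merged with the clone-named gene RP11-166J22.1, which cannot be told apart from it, and this locus was highest in SY5Y. It was at 0.0834 FPKM in CHP134, 0.571 in Kelly and 0.0235 in SK-N-DZ and is listed at 0 in BE(2)-C, against 4.03 FPKM in SY5Y and a listed 0 in SK-N-AS. Only SY5Y reached 1 FPKM, and GFRA3 was not tested. Without a filter on low values, its fold change was -1.24 (standard error 0.83, adjusted p = 0.527).

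**Figure D2:**
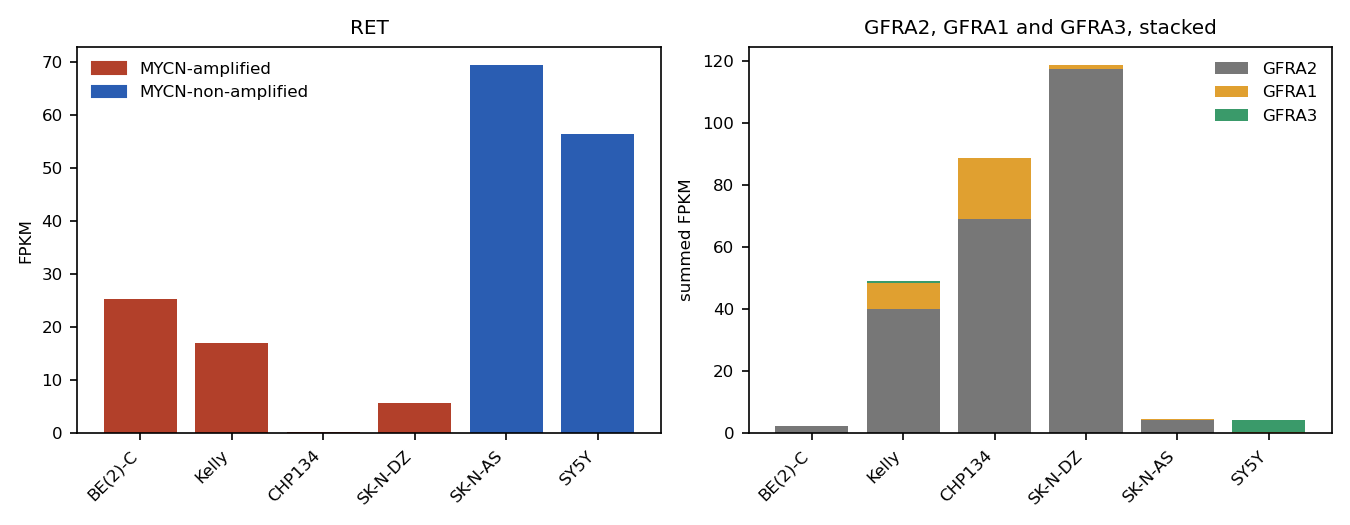
Left, RET level (FPKM) in each line, MYCN-amplified in red and MYCN-non-amplified in blue. Right, levels of GFRA2 (grey), GFRA1 (orange) and GFRA3 (green) stacked for each line, in FPKM: the stack reaches 118.6 FPKM in SK-N-DZ, where RET was at 5.69 FPKM, and 4.46 FPKM in SK-N-AS, where RET was at 69.3 FPKM.

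Set side by side, RET and the sum of its co-receptors were seldom high in the same line. The summed GFRA level was 88.8 FPKM in CHP134, 49.0 in Kelly, 118.6 in SK-N-DZ and 2.44 in BE(2)-C, against 4.33 FPKM in SY5Y and 4.46 FPKM in SK-N-AS. Per unit of RET, the GFRA sum was 490.1 in CHP134, 2.88 in Kelly, 20.8 in SK-N-DZ and 0.0961 in BE(2)-C, against 0.0767 in SY5Y and 0.0644 in SK-N-AS. Kelly was the one line with both RET and a GFRA gene above 10 FPKM. GFRA2 made up 99.99% of the GFRA sum in BE(2)-C, 77.9% in CHP134, 81.9% in Kelly and 99.0% in SK-N-DZ. In the MYCN-non-amplified lines, GFRA2 made up 99.3% of the sum in SK-N-AS, but only 5.52% in SY5Y, where the merged locus of GFRA3 held 93.0%. These shares are within a line and do not depend on the scaling between libraries.

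Of the ligands of this family, NRTN and PSPN were measured, and GDNF and ARTN were not analysed here. NRTN, neurturin, was at 1.47 FPKM in BE(2)-C and at 0.106 to 0.128 FPKM in Kelly, CHP134 and SK-N-DZ, against 2.44 FPKM in SY5Y and 0.158 FPKM in SK-N-AS. The lines with the most GFRA2 thus had little NRTN. The fold change of NRTN was -0.76 (standard error 0.80, adjusted p = 0.686). PSPN, persephin, stayed at or below 0.382 FPKM in every line. NCAM1, an adhesion molecule that can also bind GDNF with GFRA1, was at 22.1 to 35.4 FPKM in the MYCN-amplified lines and at 20.1 and 4.47 FPKM in SY5Y and SK-N-AS (fold change 1.53, adjusted p = 0.261). GAS1, a GFRA-like membrane protein, was at 0.260 to 2.09 FPKM in the MYCN-amplified lines, and at 0.858 FPKM in SY5Y and 46.2 FPKM in SK-N-AS (-2.54, adjusted p = 0.391).

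RNA of NTRK2 and NTRK3 was low, and they were carried by different lines. NTRK2 was at 0.136 FPKM in CHP134, 0.0857 in Kelly, 0.00598 in SK-N-DZ and 0.000857 in BE(2)-C, against 2.25 FPKM in SY5Y and 0.000401 FPKM in SK-N-AS. SY5Y alone reached 1 FPKM, at 16.5 times the next line, so that NTRK2 was not tested (-1.08 without a filter, standard error 0.63, adjusted p = 0.465). NTRK3, merged with the clone-named gene RP11-356B18.1, was at 3.72 FPKM in CHP134, 0.325 in Kelly, 2.80 in SK-N-DZ and 0.192 in BE(2)-C, and at 0.0224 and 0.288 FPKM in SY5Y and SK-N-AS. CHP134 and SK-N-DZ were high, and the other MYCN-amplified lines were at the level of SK-N-AS. Its fold change was 1.39 (standard error 0.86, 95% interval -0.62 to 3.40, adjusted p = 0.477). Without CHP134 or SK-N-DZ, or with the DMEM lines alone, NTRK3 fell below the minimum level and could not be fitted.

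NTF3 and NTF4, ligand genes of the TRK receptors, were not analysed here. BDNF, the ligand of TrkB, was at 0.532 FPKM in CHP134, 1.60 in Kelly, 2.58 in SK-N-DZ and 0.00147 in BE(2)-C, and at 0.392 and 0.381 FPKM in SY5Y and SK-N-AS. BDNF was thus below 1 FPKM in SY5Y, the line with NTRK2 (fold change over the groups 0.61, adjusted p = 0.735). NGFR, the p75 neurotrophin receptor, was at most 0.382 FPKM in any line.

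KIT, the receptor of stem cell factor, reached 1 FPKM in CHP134 alone. It was at 2.95 FPKM in CHP134, 0.216 in SK-N-DZ and 0.635 in SY5Y, and is listed at 0 in BE(2)-C, Kelly and SK-N-AS. It did not reach the minimum for testing, and its fold change without a filter was 0.24 (standard error 0.84, adjusted p = 0.916). KITLG, the gene of stem cell factor, was present in all 6 lines. KITLG had 1.92 to 5.29 FPKM in the MYCN-amplified lines, with 4.68 FPKM in CHP134, and 7.07 and 4.91 FPKM in SY5Y and SK-N-AS (-0.73, standard error 0.46, adjusted p = 0.488).

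No level could be given for ERBB3 alone. Its locus, 56473641 to 56507691 of chromosome 12, is merged with PA2G4 and RP11-603J24.9, and PA2G4, which encodes an ERBB3-binding protein and is read from the same strand, follows ERBB3 at 56498321 to 56507694. The merged locus was at 78.3 FPKM in CHP134, 68.5 in Kelly, 56.0 in SK-N-DZ and 62.2 in BE(2)-C, against 32.6 FPKM in SY5Y and 42.5 FPKM in SK-N-AS. All MYCN-amplified lines were higher than both other lines, and the spread over the 6 lines was 2.40-fold, the smallest of the 9 loci. The fold change was 0.81 (standard error 0.26, 95% interval 0.20 to 1.43, adjusted p = 0.229 from limma), and which of the genes carries it was not tested.

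Partners of ERBB3 had loci of their own, merged at most with RNA genes or clone-named genes. EGFR was at 8.43 FPKM in BE(2)-C and 1.21 to 1.89 FPKM in the other MYCN-amplified lines, against 10.7 FPKM in SY5Y and 13.0 FPKM in SK-N-AS. The groups did not overlap (fold change -2.01, standard error 0.66, adjusted p = 0.230). ERBB2, the usual kinase partner of ERBB3, was at 0.167 to 3.12 FPKM in the MYCN-amplified lines and at 1.01 and 1.22 FPKM in SY5Y and SK-N-AS, with the highest value in CHP134. Its fold change of -0.15 turned positive after quantile normalization, after scaling to the library sum and without BE(2)-C. ERBB4 was at 7.69 FPKM in BE(2)-C and 3.75 FPKM in CHP134, and at most 0.538 FPKM in the 4 other lines. NRG1, a ligand of ERBB3 and ERBB4, was at 0.797 FPKM in CHP134 to 14.1 FPKM in BE(2)-C among the MYCN-amplified lines, and at 2.10 FPKM in SY5Y and 14.5 FPKM in SK-N-AS. NRG2 was at 3.60 FPKM in BE(2)-C, 0.00245 to 0.371 FPKM in the other MYCN-amplified lines, and at 1.90 and 3.03 FPKM in SY5Y and SK-N-AS. NRG3 passed 1 FPKM in BE(2)-C alone, at 2.75 FPKM, and NRG4 in no line.

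**Figure D3:**
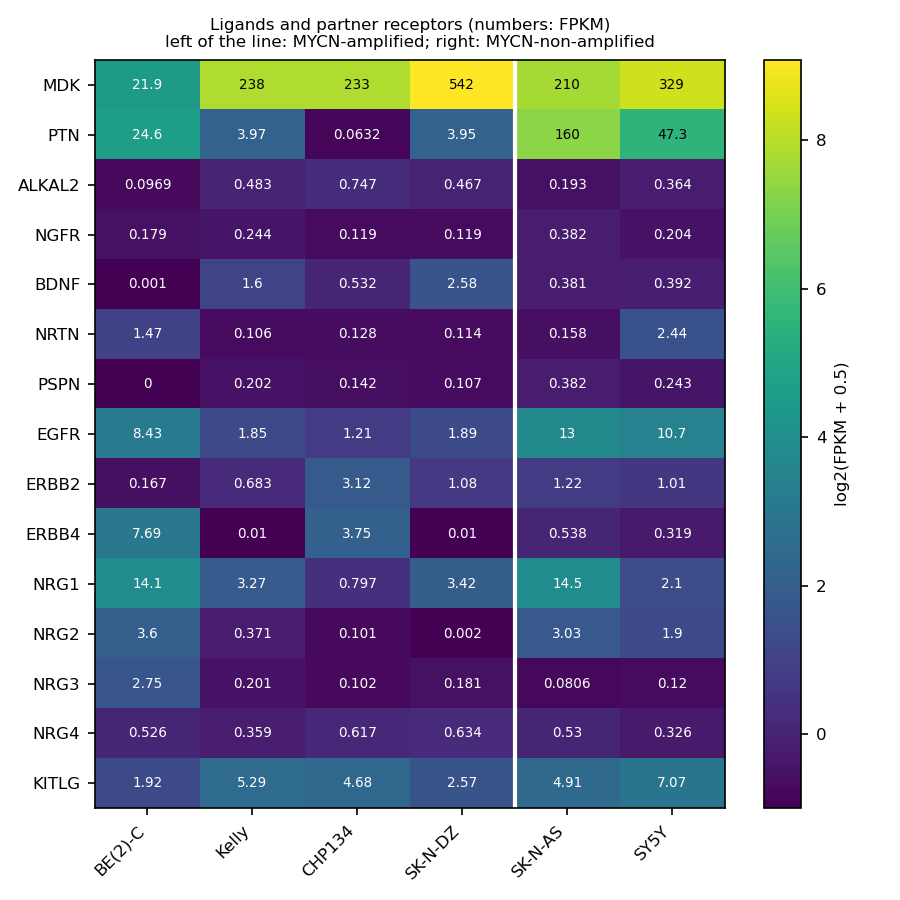
Levels of 15 ligand and partner receptor genes in the 6 lines, coloured by log2(FPKM + 0.5) and printed in FPKM, with the MYCN-amplified lines left of the white line and SK-N-AS and SY5Y right of it. MDK is at 210.2 to 542 FPKM in all lines except BE(2)-C (21.9 FPKM), and PTN is highest in SK-N-AS (160 FPKM).

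None of the receptors was called between MYCN-amplified and MYCN-non-amplified lines. A call required limma's adjusted p below 0.05 together with a log2 difference of more than 1 in size, which 0.505% of the 12870 tested loci met, 0.14% higher and 0.365% lower. Of the 9 receptors, 6 reached 1 FPKM in at least 2 lines and were tested, and NTRK2, GFRA3 and KIT did not. At an unadjusted p below 0.05 there were 3 of the 6, RET, GFRA2 and the locus of ERBB3 with PA2G4, against 14.9% of all tested loci. The receptors were chosen with earlier results of these data known, so that this share is not an independent comparison. The values of the groups did not overlap for RET and the ERBB3 locus, as for 26.9% of all tested loci, with all MYCN-amplified lines above in 10.5% and below in 16.4%. The 95% intervals of ALK, NTRK3 and GFRA1 include 0, and that of ALK, -1.74 to 3.33, allows a sizeable difference in either direction.

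**Figure D4:**
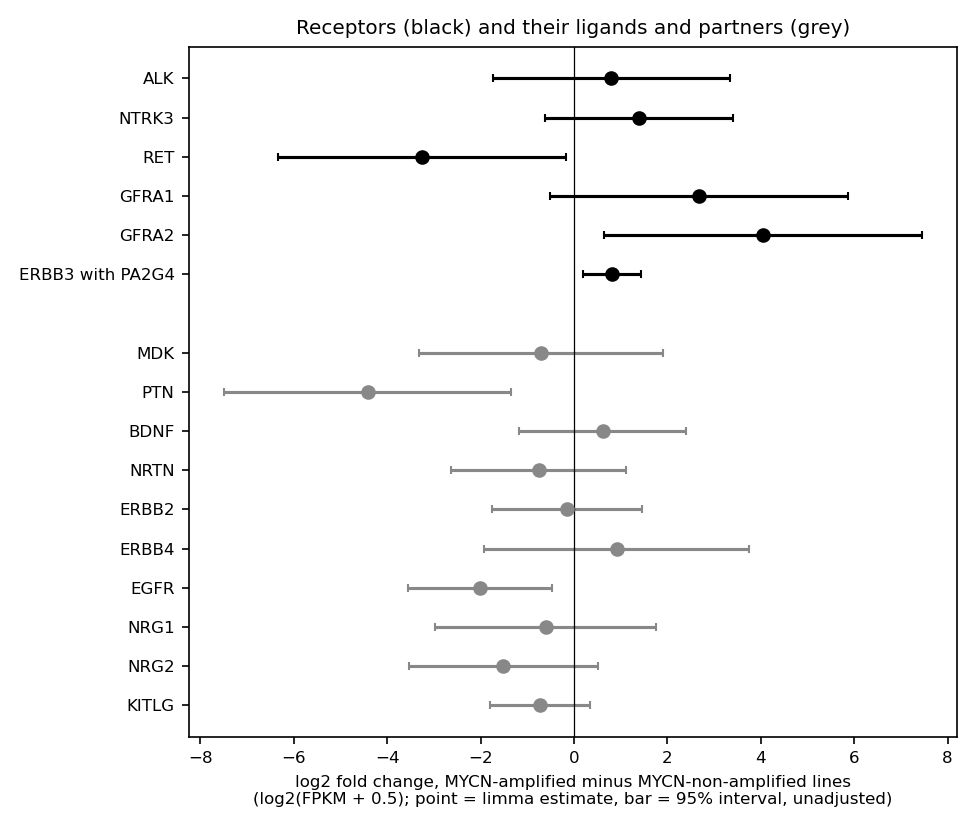
Log2 fold change of MYCN-amplified over MYCN-non-amplified lines on log2(FPKM + 0.5) for the 6 tested receptors (black) and 10 ligands and partner receptors (grey), with the limma estimate as point and its unadjusted 95% interval as bar. The estimate is lowest for PTN (-4.42) and RET (-3.25) and highest for GFRA2 (4.04), and none passed the test over all loci.

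At a level of 1 FPKM, each line had its own combination of these receptors. Leaving out the ERBB3 locus, at least 1 FPKM was reached by ALK, RET and GFRA2 in BE(2)-C and by ALK, RET, GFRA1 and GFRA2 in Kelly. CHP134 had ALK, NTRK3, GFRA1, GFRA2 and KIT but not RET, and SK-N-DZ had ALK, NTRK3, RET, GFRA1 and GFRA2. Among the MYCN-non-amplified lines, SK-N-AS had RET and GFRA2 alone, and SY5Y had ALK, NTRK2, RET and GFRA3. The counts of 3, 4, 5 and 5 receptors in the MYCN-amplified lines and of 2 and 4 in SK-N-AS and SY5Y carry no error estimate, since each line has 1 library. At 5 FPKM the counts, in the same order, were 1, 4, 2 and 2 in the MYCN-amplified lines, and 1 and 2 in SK-N-AS and SY5Y. BE(2)-C and SK-N-AS then had the same set, RET alone.

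Each receptor was also set against the other tested single-gene loci by Pearson's r of log2(FPKM + 0.5) over the 6 lines, given as a description of shape only, since 10205 or more loci were searched over 6 points that share their libraries. The 3 loci most like RET were DTX2 (r = 0.996), DPY19L1 and NPL, and 50 loci had r above 0.95. DPY19L1 was at 3.11 to 13.6 FPKM in the MYCN-amplified lines and at 18.7 and 24.9 FPKM in SY5Y and SK-N-AS. GFRA1 was most like DCLK3, a kinase gene (r = 0.994), LPL, the lipoprotein lipase gene, and MRPL39. DCLK3 was at 11.05 FPKM in CHP134, 4.25 in Kelly, 0.676 in SK-N-DZ and 0.0665 in BE(2)-C, against 0.182 and 0.00688 FPKM in SY5Y and SK-N-AS. For GFRA2 the nearest were PAK2 (r = 0.991), PSMD11 and SFXN2, but PAK2 moved only between 8.54 and 14.7 FPKM. For ALK they were GTF2I (r = 0.996), PNMAL1 and ZNF624, with GTF2I at 65.6 to 81.0 FPKM in the MYCN-amplified lines and at 88.5 and 47.0 FPKM in SY5Y and SK-N-AS.

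The receptors of SY5Y were matched by genes that are high in the same line. NTRK2 was most like HIST1H3E (r = 0.987), IL17RD, an inhibitor of fibroblast growth factor signalling, and RFTN1. IL17RD was at 0.275 to 1.31 FPKM in the MYCN-amplified lines, and at 25.8 FPKM in SY5Y and 0.789 FPKM in SK-N-AS. GFRA3 was most like CRELD2, UNC13D and ZNF235 (r from 0.985 to 0.990). NTRK3 went with KCNS3, a potassium channel subunit gene (r = 0.997), PARP16 and RNF114. KCNS3 was at 0.219 to 2.06 FPKM in the MYCN-amplified lines and at 0.0983 and 0.279 FPKM in SY5Y and SK-N-AS. KIT was most like CIRBP, HMGN2P41 and CCNI (r from 0.984 to 0.986), and the ERBB3 locus was most like EXOSC2 (r = 0.995), LSM2 and CTD-2302E22.3.

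Genes that act with these receptors were not called either. Of the tested ligands and partners there were 2 loci for ALK, 5 for the TRK receptors, 4 for RET, 6 for ERBB3 and 4 for KIT, with no call by limma in any of the 5 lists. At an unadjusted p below 0.05, 1 of these loci was higher (NCAM1), and 4 were lower: PTN, EGFR, PDGFD and the locus of PDGFRA. Over all 12870 tested loci, 705 were higher and 1218 lower at that threshold. Of 43 other receptor tyrosine kinase genes, 33 had a locus and 23 were tested, with 0 higher and 0 lower by limma against 0.505% of all loci, and with 0 higher and 4 lower at an unadjusted p below 0.05. Their median fold change was -0.55, beside -0.09 over all tested loci. The smallest p among them were those of MERTK (-2.02, adjusted p = 0.148) and EPHA2 (-2.56, adjusted p = 0.238). MERTK, of the TAM receptors, was at 0.0216 to 0.477 FPKM in the MYCN-amplified lines and at 2.41 and 2.47 FPKM in SY5Y and SK-N-AS. Of 47 tested loci of adaptors and proximal effectors, none was called in either direction, 3 were lower at an unadjusted p below 0.05, and the median was -0.18. IRS2, an adaptor of insulin and growth factor receptors, stood at -2.08 (adjusted p = 0.165). SHC1, the adaptor that links TRK, RET and ALK to RAS, stood at -1.68 (adjusted p = 0.170) in a locus merged with PYGO2, with 26.1 to 77.9 FPKM in the MYCN-amplified lines and 155 and 177 FPKM in SY5Y and SK-N-AS.

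Phosphatases and other brakes on these receptors, with 14 loci tested, had a median of -0.50 and no call, with 2 lower at an unadjusted p below 0.05. Of all tested loci, 14.9% met that threshold in either direction. The receptor phosphatase gene PTPRJ stood at -1.65 (adjusted p = 0.210) and RNF41, whose product marks ERBB3 for degradation, at -0.80 (adjusted p = 0.289). Among relatives and ligands of KIT, with 4 tested loci, the locus that merges PDGFRA with FIP1L1 and others stood at -1.38 (adjusted p = 0.103) and PDGFD at -2.48 (adjusted p = 0.143). The 16 tested loci of adrenergic regulators, which include transcription factors of the sympathetic lineage, had a median of 0.07 and no call, with 2 higher at an unadjusted p below 0.05. INSM1, a zinc finger transcription factor gene, stood at 2.16 (adjusted p = 0.307).

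By position, the 9 receptors lie on chromosomes 2, 9, 15, 10, 8, 5, 12 and 4, and RET and GFRA1 share chromosome 10. No tested locus within 1 Mb of any receptor was called, among 5 (around GFRA1) to 41 (around ERBB3) neighbours. At an unadjusted p below 0.05, as for 14.9% of all tested loci, there were 0 of 10 neighbours of ALK and 0 of 17 of GFRA2. There were 1 of 11 around NTRK2, 3 of 9 around NTRK3, 2 of 13 around RET and 1 of 5 around GFRA1. Around GFRA3 there were 3 of 19, around KIT 4 of 6 and around ERBB3 12 of 41. The median fold change of the neighbours was -1.18 around KIT, with 6 loci, the lowest of the 9 windows, and 0.27 around ALK, with 10 loci, the highest. The 13 neighbours of RET had a median of -0.37 and the 17 neighbours of GFRA2 of -0.23, beside -3.25 and 4.04 for the receptors themselves.

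**Figure D5:**
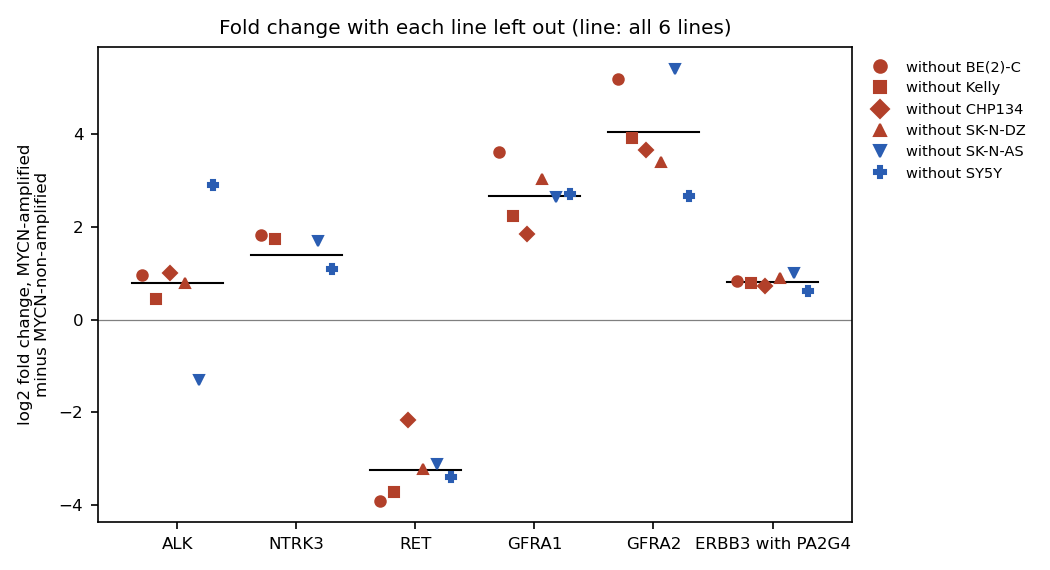
Log2 fold change of each tested receptor (MYCN-amplified minus MYCN-non-amplified lines, log2(FPKM + 0.5)) with all 6 lines (horizontal bar) and without each line in turn (points). ALK goes from -1.31 without SK-N-AS to 2.91 without SY5Y, the fold changes of NTRK3, RET, GFRA1, GFRA2 and the ERBB3 locus keep their sign, and NTRK3 has no point without CHP134 or SK-N-DZ.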

How the data were processed

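RNA depleted of ribosomal RNA was measured in 6 cell lines (1 library each), named in the sample labels, and MYCN status was taken from the study's methods. Per the submitters' processing notes, STAR, edgeR and hg19 were used. The methods describe counting on Gencode V18. The authors deposited normalized values of 19170 assembled loci, made by a step not given in the sources used here. These deposited values, whose unit the table does not name, were read as FPKM from their decimals and unequal sums. No result uses the 1 emptied line of the table, and 0 value columns went unused. A locus counted for every gene in its name, and merged loci were not split.

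The 12870 named loci that reached 1 FPKM in 2 or more lines were fitted by limma 3.58.1 (R 4.3.3, lmFit and trended eBayes) on log2(FPKM + 0.5), without covariates, and adjusted by Benjamini-Hochberg over all of them. The fit was tested on simulated data. Gene names were those of the rule: the 9 receptors, their measured ligands and co-receptors, the 2 genes of each further list with the smallest p, and the 3 loci most like each receptor. The receptors and lists were chosen with earlier results of these data known. Positions are those of the table, and annotation is GENCODE 44 on the same build. Python 3.11.15 and matplotlib 3.10.9 were used. Alternatives were the pseudocount, filter, scaling, variance model, lines and loci used. Some genes covered by the lists and the rule are not reported here.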

Additional observations from a re-analysis of the deposited data

Results flagged for a closer look

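In the 4 MYCN-amplified lines, 1 line stood far from the other 3 by Dixon's ratio on log2(FPKM + 0.5) for NRTN and for NRG3, and BE(2)-C was the high line in both. NRTN, the neurturin gene, was at 1.47 FPKM in BE(2)-C and 0.106 to 0.128 FPKM in the others (ratio 0.9702), and NRG3, a neuregulin gene, at 2.75 FPKM and 0.102 to 0.201 FPKM (ratio 0.9102). Both ratios are past Dixon's 95% limit for 4 samples. The other 3 lines lie below the added 0.5 FPKM, which draws low values together and can raise such a ratio. They were 2 of 29 ligand and partner genes examined, and 0 of the 9 receptors passed the limit. Chance flags about 1 in 20 groups.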

How the results depend on the processing

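Among 103 refitted fold changes of the 6 tested receptors, 102 kept their sign and none was called. The exception was ALK (-1.31 without SK-N-AS, up to 2.91 without SY5Y). Refits that changed only the minimum level, the variance model or the loci included left the fold change itself unchanged, so their sign could not change. Refits in which a receptor fell below the minimum level are not among the 103. Among further genes, MDK was at 0.24 without BE(2)-C and at -1.29 without SK-N-DZ, ERBB2 at 0.21 after quantile normalization, 0.16 after scaling to the library sum and 0.23 without BE(2)-C, and at -0.58 without CHP134 and -0.65 with the DMEM lines alone. NRG1 was at 0.66 without SK-N-AS, -1.87 without SY5Y and 0.28 with the DMEM lines alone. MYCN lost its call with the DMEM lines alone (8.34, adjusted p = 0.124). The number of loci called higher (18) and lower (47) was 8 and 7 with a smaller pseudocount, 6 and 5 with a minimum of 5 FPKM, and 1 and 0 with the DMEM lines alone (369 higher and 1135 lower at unadjusted p below 0.05). The number called lower was 25 after scaling to the library sum and 85 without limma's trend. Leaving out each line gave 5 to 18 higher and 2 to 44 lower. Both counts were lowest without SK-N-AS and highest without BE(2)-C, and without Kelly, CHP134, SK-N-DZ or SY5Y there were 6 to 11 higher and 3 to 17 lower. Scaling to the library sum moved the median of all loci to 0.28, against -0.09 as deposited. The cause was not tested. One scaling, to the sum without RNU4-1 and RNU4-2, was added after the data were seen. It gave 18 higher and 54 lower, and the median of all loci was -0.12. Median-ratio size factors changed the order of the lines for the ERBB3 locus alone, where Kelly and BE(2)-C changed places. No paired analysis was possible because no line occurs in both MYCN groups. Depth is unknown, which limits what can be said of receptors listed at or near 0.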
